A study of Mus musculus with 6 samples.

Results

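The HOX cluster genes, which encode homeodomain transcription factors, were examined in mouse embryonic stem cells. They are the rows whose gene name, split at commas, consists of Hox, a cluster letter from a to d and a number. This gave 39 genes in 34 named entries, out of 49415 named entries and 62490 loci in all. Of the 39 genes, 9 shared an entry with another HOX gene, because the assembled loci overlap: Hoxa2 with Hoxa3, Hoxc5 with Hoxc10 and Hoxc12, Hoxd3 with Hoxd4, and Hoxd10 with Hoxd11. Their reads could not be told apart, and each such entry is given as 1 value. All cells were blastocyst-derived embryonic stem cells of strain C57BL/6J with the genotype Mll1fl/fl; Cre-ER TM, that is, with floxed Mll1 alleles and an inducible Cre. No library is labelled as having had its Mll1 alleles deleted. One group received VD3 (1α,25-dihydroxyvitamin D3, the hormonal form of vitamin D, 1 µM) together with MM-401 (100 µM) for 5 days, another received the same VD3 alone for 5 days, and the last was untreated. There was no group with MM-401 alone, and whether the labels' cells are 1 clone is not given. All were grown on mouse embryonic fibroblast feeder cells with leukemia inhibitory factor, in a medium for which the labels list either serum or serum replacement.

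HOX genes lie in the A, B, C and D clusters, in the order in which they are used along the body axis, and genes of the same number in different clusters (paralogues) arose by duplication. Their low-numbered members are used towards the head and their high-numbered members towards the tail and in limbs. MLL1, the product of Kmt2a (Mll1), is a histone H3 lysine methyltransferase that keeps HOX genes active once they have been switched on, whereas Polycomb complexes keep them silent. MM-401 blocks the contact between MLL1 and its partner WDR5, on which the activity of the MLL1 complex depends. In pluripotent cells the HOX clusters are known to carry both activating and Polycomb marks and to be transcribed little. The tables hold RNA only, so MLL1 binding and histone marks at these genes were not measured.

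Each group had 2 libraries, named as biological duplicates, but the deposited tables give 1 pooled column per group. The pools held 73499639 estimated counts with VD3 plus MM-401, 73636342 with VD3 and 62284598 in untreated cells. A pooled column holds no value per library. FPKM values (fragments per kilobase of transcript, scaled to the depth of the library) are given with the authors' own lower and upper bounds. The column for VD3 plus MM-401 and the untreated column were matched by the shared start of their names with the groups' titles, and the rest of those names is not explained by the labels. Pluripotency markers were high in every pool, with Pou5f1 at 1832 FPKM with VD3 plus MM-401, 2053 with VD3 and 1114 in untreated cells. Of 20 fibroblast markers, 12, 10 and 10 were below 1 FPKM in those pools, and their summed level was 152, 231 and 139.8 FPKM, of which Tagln alone gave 116, 190.0 and 105. By the rule given below, the entry of Col3a1 was counted as lower in the VD3 plus MM-401 pool than in either of the others. It was at 0.553 FPKM against 3.93 with VD3 and 4.19 untreated. Its estimated counts were 23.3, 10.7 and 13.8 in these pools, so the lower FPKM was not in its counts. The entry also holds AC125167.1. Among the pluripotency markers the entry of Dppa5a was counted as higher with VD3 plus MM-401 than untreated, at 2088 FPKM, against 959 with VD3 and 628 untreated. Thy1 was at 9.41, 13.8 and 7.46 FPKM, Mmp2 at 8.04, 5.86 and 7.86 and Twist1 at 4.07, 3.26 and 2.21. Lum was at 0 in all pools, Postn was at 0 in both treated pools, and Col1a1 was at 0.412, 0.657 and 0.630 FPKM. Neural progenitor markers summed to 20.3, 25.0 and 15.8 FPKM and macrophage and endothelial markers to 34.6, 43.3 and 37.6. The part of these cells in the HOX values was not tested. Kmt2a was at 17.0 FPKM with VD3 plus MM-401, 11.6 with VD3 and 14.9 in untreated cells, and its bounds overlapped between pools.

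Transcription from the HOX clusters was low in all 3 pools. Of the 34 entries, 5 reached 1 FPKM with VD3 plus MM-401, 7 with VD3 and 4 in untreated cells, that is 14.7%, 20.6% and 11.8% of the entries. Among 19453 protein-coding single names the same share was 53.4%, 53.2% and 53.2%. The median HOX entry was at 0.214, 0.193 and 0.212 FPKM, against 1.65, 1.61 and 1.64 FPKM for the median protein-coding name. Few HOX entries were listed at 0: 3 with VD3 plus MM-401, 2 with VD3 and 2 in untreated cells. Of the 19453 protein-coding names, 5526, 5215 and 5125 were at 0 in those pools. A HOX entry above 0 can rest on 1 read, as Hoxa6 and Hoxc6 did with VD3 plus MM-401. Most of the other HOX entries lay between 0.1 and 1 FPKM, where 20, 18 and 21 entries were found. The low level was thus shared across the family in each pool, and it was not a matter of a few silent genes.

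**Figure D1:**
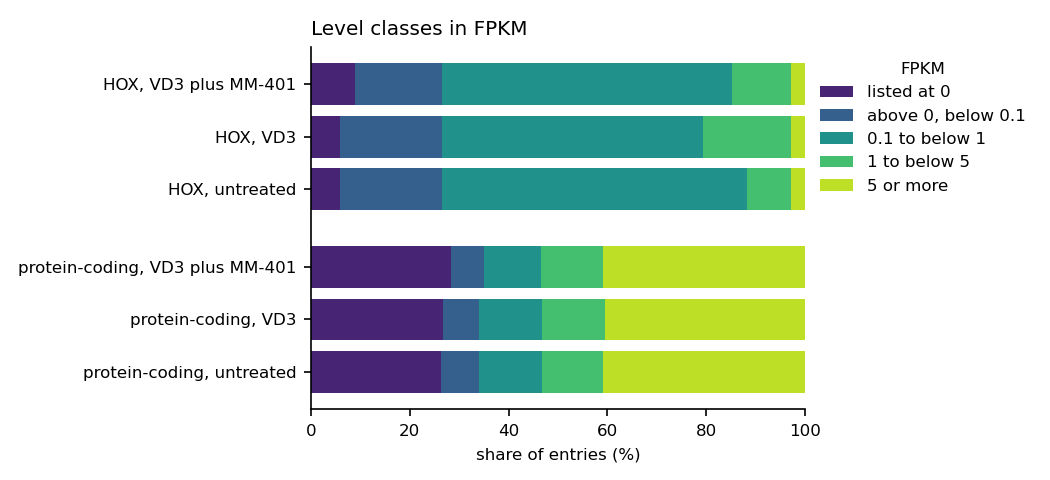
Share of entries (%) in 5 classes of FPKM for the 34 HOX entries and for 19453 protein-coding single names, with 1 bar for each pool. The class from 0.1 to below 1 FPKM holds most HOX entries (20, 18 and 21 of them with VD3 plus MM-401, with VD3 and in untreated cells), while 53.4%, 53.2% and 53.2% of the protein-coding names lie at 1 FPKM or above.

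The entries with a mean of at least 1 FPKM over the pools numbered 7 and cover 8 HOX genes. Among them are Hoxa2 with Hoxa3, Hoxa5 and Hoxa7 of the A cluster, and Hoxb9, Hoxb13 and Hoxc13 from the high-numbered end of the B and C clusters. Another 19 entries had a mean from 0.1 to below 1 FPKM, and 8 had a mean below 0.1 FPKM. No member of the D cluster had a mean of 1 FPKM.

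**Figure D2:**
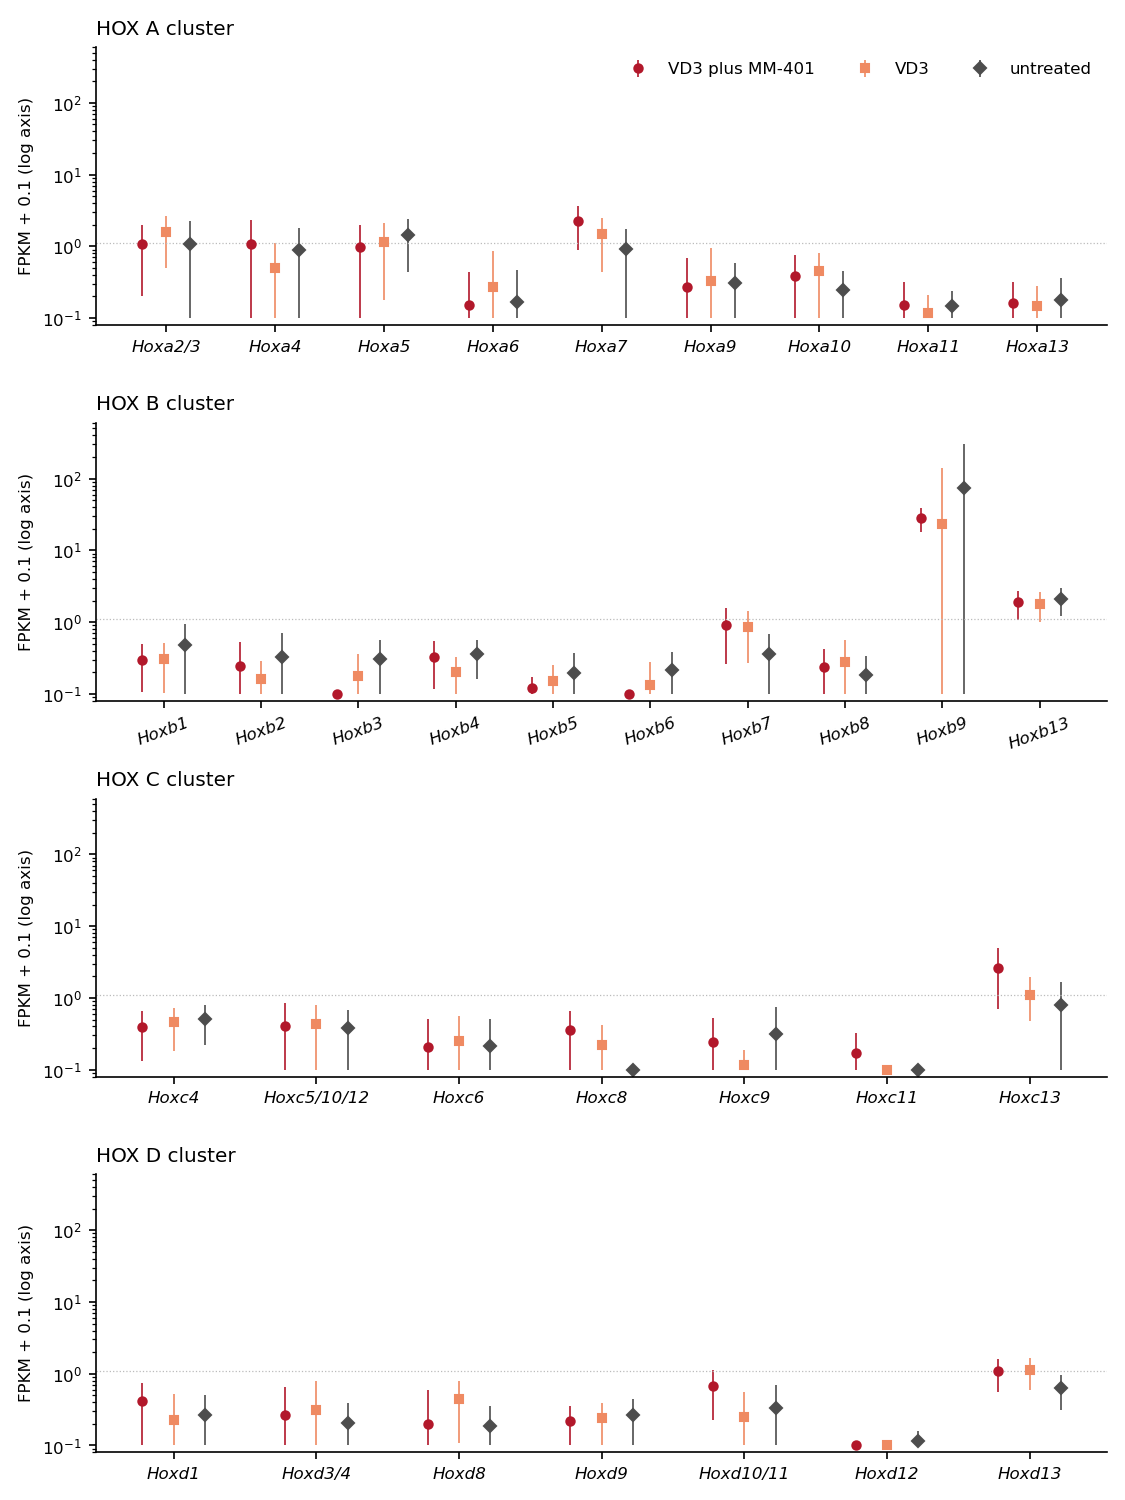
FPKM + 0.1 on a log axis for 33 of the 34 HOX entries in cluster order, with VD3 plus MM-401 left of VD3 and untreated cells; bars are the authors' bounds, and the dotted line marks 1 FPKM. Entries that hold more than 1 HOX gene are labelled with all of their numbers; apart from the entry of Hoxb9, every point lies below 5 FPKM and every bar overlaps those of the other pools.

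Hoxb13 (chromosome 11, 96194316 to 96197447, plus strand, GRCm38), the high-numbered end gene of the B cluster and a regulator of prostate identity, had the smallest gap between its highest and lowest pool, on the log2 scale, among the 7 entries with a mean of at least 1 FPKM. Its level was 1.82 FPKM with VD3 plus MM-401 (0.976 to 2.66), 1.70 with VD3 (0.900 to 2.51) and 2.03 in untreated cells (1.11 to 2.94). On the log2(FPKM + 0.1) scale the differences were -0.15 for VD3 plus MM-401 against untreated, -0.24 for VD3 against untreated and 0.09 for VD3 plus MM-401 against VD3. The bounds allow values between -1.50 and 1.18 for the first of these, the narrowest range among the 7 entries in that comparison.

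Hoxa5 (chromosome 6, 52201754 to 52204587), needed for lung and cervical vertebra development, was at 0.894 FPKM with VD3 plus MM-401 (0 to 1.89), 1.06 with VD3 (0.0810 to 2.04) and 1.33 in untreated cells (0.344 to 2.32). Both treated pools had lower values than the untreated pool, with overlapping bounds. The entry of Hoxa2 and Hoxa3, which act in the branchial arches and in the thymus and parathyroid, was at 0.993 FPKM with VD3 plus MM-401, 1.49 with VD3 and 0.968 in untreated cells. The entry also carries Gm28308, an annotated gene that spans both.

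Hoxa7 (chromosome 6, 52214491 to 52221854), a mid-cluster gene and a known MLL1 target in mice, had the opposite order. It was at 2.14 FPKM with VD3 plus MM-401 (0.783 to 3.50), 1.37 with VD3 (0.339 to 2.40) and 0.812 in untreated cells (0 to 1.66). The log2 differences were 1.30, 0.69 and 0.61 for VD3 plus MM-401 against untreated, VD3 against untreated and VD3 plus MM-401 against VD3. The bounds of the highest and the lowest pool overlapped, and they allow differences between -1.0 and 5.17. Hoxc13 (chromosome 15, 102921103 to 102928814), which controls hair keratin genes, showed the same order, at 2.52 FPKM with VD3 plus MM-401 (0.592 to 4.87), 0.991 with VD3 (0.377 to 1.87) and 0.693 in untreated cells (0 to 1.57). These are sums over the 2 assembled loci that carry its name. Its log2 difference for VD3 plus MM-401 against untreated was 1.72 by FPKM and 1.07 by estimated count (+ 10), so part of its FPKM difference is not in its counts.

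The entry that names Hoxb9 (chromosome 11, 96271457 to 96276595), which acts in rib patterning, had the highest level of all HOX entries. It stood at 28.6 FPKM with VD3 plus MM-401 (bounds 18.2 to 38.9), 23.2 with VD3 (0 to 139) and 73.3 in untreated cells (0 to 302). Its estimated counts were 1842, 1559.8 and 1518 in the same pools. The FPKM thus differed by -1.36 and -1.66 on the log2 scale for VD3 plus MM-401 and for VD3 against untreated, while the counts (+ 10) differed by 0.28 and 0.04, with the opposite sign. In FPKM per 100 counts, the entry had 1.55, 1.49 and 4.83. The entry also holds the long noncoding RNA Gm53 and the microRNA gene Mir196a-1, and its value could not be assigned to Hoxb9. Because of this it is left out of the sums over clusters below.

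Mir196a-1 is a gene of 102 bases, far shorter than the other transcripts of that entry. Its mature product and its relative from the A cluster are known to target HOX mRNAs, and a second microRNA family, miR-10, also lies inside the clusters. The mature sequences below (RefSeq, GRCm38.p6) show the 2 families, with the seed (bases 2 to 8) in capitals.
miR-196a-5p: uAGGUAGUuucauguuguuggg
miR-196b-5p: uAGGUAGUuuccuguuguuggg
miR-10a-5p: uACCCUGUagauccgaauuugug
miR-10b-5p: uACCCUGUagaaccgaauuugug
Counted from the 5' end, miR-196b-5p differs from miR-196a-5p by A12C and miR-10b-5p differs from miR-10a-5p by U12A, both outside the seed (the base of miR-196a-5p or of miR-10a-5p is written first). In the tables, the loci Mir10a, Mir10b, Mir196a-2 and Mir615 were listed at 0 in all 3 pools. The labels' protocols name no selection of small RNAs, so these zeros do not describe the mature microRNAs.

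Among the 19 entries between 0.1 and 1 FPKM, the 5 highest by mean were Hoxd13, Hoxa4, Hoxb7, Hoxc4 and the entry of Hoxd10 and Hoxd11. Hoxd13 (chromosome 2, 74668310 to 74671599), the digit and genital gene at the end of the D cluster, was at 0.993 FPKM with VD3 plus MM-401 (0.458 to 1.53), 1.02 with VD3 (0.493 to 1.54) and 0.541 in untreated cells (0.209 to 0.874). Hoxb7, which lies in the middle of the B cluster, was at 0.804, 0.752 and 0.257 FPKM in that order of pools. Both thus had higher values in both treated pools, with overlapping bounds. Hoxa4 was at 0.977 FPKM with VD3 plus MM-401, 0.401 with VD3 and 0.802 in untreated cells. Hoxc4 was at 0.291, 0.358 and 0.409 FPKM, and the entry of Hoxd10 and Hoxd11, genes of the forearm and lower leg, at 0.581, 0.152 and 0.230 FPKM. The other 14 of the 19 entries had means from 0.125 FPKM up to that of the entry of Hoxc5, Hoxc10 and Hoxc12, at 0.307.

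The 8 entries with a mean below 0.1 FPKM were Hoxa6, Hoxa11, Hoxa13, Hoxb3, Hoxb5, Hoxb6, Hoxc11 and Hoxd12, and no pool value among them was above 0.206 FPKM. Hoxb3 and Hoxb6 were listed at 0 with VD3 plus MM-401 and Hoxd12 at 0 in both treated pools. Hoxc11 was at 0 with VD3 and in untreated cells, and Hoxc8, with a mean of 0.126 FPKM, at 0 in untreated cells. Against the level that 3 reads would give in untreated cells, Hoxc8 was 3.11-fold higher with VD3 plus MM-401 and 1.48-fold higher with VD3. The treated values rest on 9 and 5 reads, whose own counting error is left out, so these ratios are not lower limits. The bounds of Hoxc8 touched between those pools. No such ratio is given for Hoxb3, whose untreated count was not whole alone but came out whole when added to those of Hoxb2 and Hoxb3os.

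By cluster, the summed level of the A cluster was 7.82 FPKM with VD3 plus MM-401, 8.10 with VD3 and 7.68 in untreated cells. The B cluster without the Hoxb9 entry summed to 3.35, 3.17 and 3.67 FPKM. The C cluster summed to 3.69, 1.98 and 1.71 FPKM and the D cluster to 2.27, 1.99 and 1.31 FPKM. The A and B sums thus differed little between pools, and the C and D sums were highest with VD3 plus MM-401. In the C cluster the higher sum with VD3 plus MM-401, relative to untreated cells, came mostly from Hoxc13. By paralogue number, over 6, 13 and 12 entries and without the entry of Hoxb9, that of Hoxc5, Hoxc10 and Hoxc12 and that of Hoxd3 and Hoxd4, the sums over groups 1 to 3 were 3.83, 4.93 and 5.16 FPKM, those over groups 4 to 8 were 6.01, 5.10 and 4.45 FPKM, and those over groups 9 to 13 were 6.82, 4.67 and 4.38 FPKM. The sum over low-numbered genes was thus lowest, and the other sums highest, in the pool given VD3 plus MM-401. The medians had the same order of pools for groups 4 to 8, at 0.228, 0.180 and 0.117 FPKM, and another order for groups 1 to 3, at 0.256, 0.168 and 0.306, and for groups 9 to 13, at 0.157, 0.147 and 0.188. A sum over genes is led by its highest members, and no spread between libraries was computed for it.

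Across all entries with a mean of at least 1 FPKM, an entry was counted as different where FPKM + 0.1 differed at least 2-fold and the authors' bounds did not overlap. For VD3 plus MM-401 against untreated, 6.26% of 14225 entries met this (518 higher, 3.64%, and 372 lower, 2.62%), and 0 of the 7 HOX entries did. For VD3 against untreated, 4.99% met it (135 higher, 0.949%, and 575 lower, 4.04%), again with 0 of the 7 HOX entries. For VD3 plus MM-401 against VD3, 1.33% met it (112 higher, 0.787%, and 77 lower, 0.541%), with 0 of the 7. The split of higher and lower entries depended on scaling: with differences centred on the median entry it was 384 and 373, 91 and 576, and 112 and 77, and with counts scaled to the pool's total 222 and 767, 26 and 1215, and 78 and 17. With 7 entries, a count of 0 is close to what these background shares would give, so it sets the HOX genes apart from other genes in neither direction. Over all 34 HOX entries, with no filter, the bounds did not separate the pools for any entry in any comparison.

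The direction of the values was mixed. For VD3 plus MM-401 against untreated, 16 HOX entries had a difference above 0 and 18 below, from -1.61 for Hoxb3 to 1.83 for Hoxc8. For VD3 against untreated, 14 were above 0 and 19 below, from -1.66 for the Hoxb9 entry to 1.27 for Hoxd8. For VD3 plus MM-401 against VD3, which sets the inhibitor against its own background, 15 were above 0 and 18 below, from -1.16 for Hoxd8 to 1.43 for the entry of Hoxd10 and Hoxd11. The median difference of the 7 entries that passed the filter was -0.15, -0.11 and 0.09 in these comparisons, beside 0.23, 0.34 and 0.01 for all entries. By estimated count the same medians were 0.20, 0.04 and 0.09, beside 0.22, 0.33 and 0.01. The comparisons share their pools and are not independent of each other. Across 10442 protein-coding entries the differences moved with transcript composition: Spearman's rho with GC content was 0.356, 0.522 and -0.247, and with length -0.381, -0.266 and -0.172, over genes within these pools. The median HOX transcript was 1890 bases long with 54.4% GC, and the median of those protein-coding entries 2112 bases with 51.2% GC, and the part of composition in the HOX differences was not tested.

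**Figure D3:**
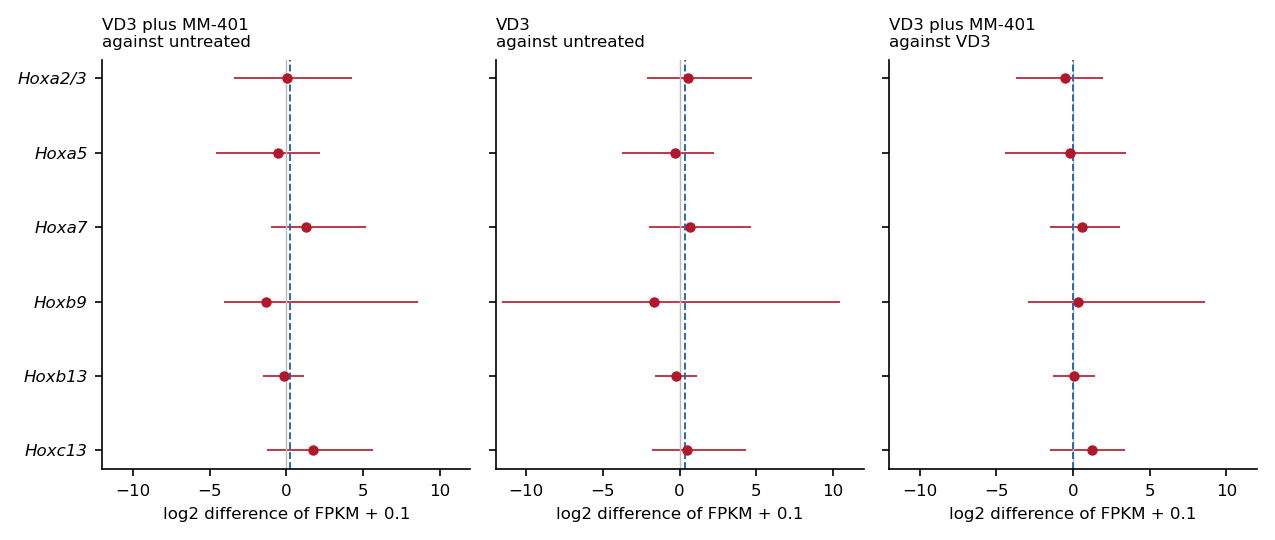
Log2 difference of FPKM + 0.1 for 6 of the 7 HOX entries with a mean of at least 1 FPKM (points), with the range that the authors' bounds allow (lines), in the 3 comparisons; the dashed line is the median of all 14225 entries. The row named Hoxb9 is the entry it shares with Gm53 and Mir196a-1, and every line crosses 0.

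The pooled counts held more than their sum. In each pool most low counts were sums of whole multiples of 2 fixed steps, as follows if a pool adds the reads of 2 libraries that were each scaled to a common depth. The steps were 2.48 and 4.59 counts per read with VD3 plus MM-401, 2.53 and 3.09 with VD3 and 2.76 and 3.22 in untreated cells. Of the counts between 0 and 150, 81.9%, 80.7% and 81.2% were such sums to within 0.0006 counts, a tolerance that covers 0.826%, 1.19% and 1.05% of that range. Each pooled count thus stands for fewer reads than its size, and the pools rest on about 16000000 to 29500000, 23700000 to 29100000, and 19300000 to 22500000 reads. Of the 36 HOX loci, 24, 27 and 25 had exactly 1 solution in whole reads, which together held 380, 411 and 330.0 reads. The libraries are called deeper (smaller step) and shallower below, since the tables do not say which is replicate 1. Of overlapping loci, some came out whole only when added up, such as both Hoxc13 loci with VD3 (24 and 25 reads in the deeper and the shallower library) and in untreated cells (16 and 20). The sum of 1 Hoxa9 locus with Hoxa10 behaved likewise in both treated pools. That of Hoxd1 with the antisense RNA Haglr did so with VD3 plus MM-401 and in untreated cells. In the same pools the sum of Hoxb2 with Hoxb3 and Hoxb3os was whole although some of its parts were not. In the remaining pool of each sum, the parts were whole or at 0 by themselves.

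Per library, the HOX values rested on few reads. Hoxb13 had 46 and 31 reads in the deeper and the shallower library with VD3 plus MM-401, 56 and 32 with VD3, and 50 and 46 in untreated cells. On the scale of the pool's count these are 229 and 285, 283 and 198, and 276 and 297, and the ranges of all 3 pools overlapped. Hoxd13 had 18 and 25 reads with VD3 plus MM-401, 28 and 30 with VD3 and 14 and 15 in untreated cells, or 89.4 and 229.6, 141 and 186, and 77.2 and 96.7 on the common scale. Both VD3 libraries lay above both untreated libraries, whereas the deeper library with VD3 plus MM-401 lay within the untreated pair. Hoxa5 had 24 and 10 reads with VD3 plus MM-401, 30 and 16 with VD3 and 29 and 24 in untreated cells, and on the common scale both libraries of each treated pool lay below both untreated ones. For Hoxa7 alone the counts came out whole in the treated pools only, with 50 and 32 reads with VD3 plus MM-401 and 33 and 29 with VD3. In untreated cells its count came out whole only when added to that of the overlapping antisense RNA Hoxaas3, with 21 and 16 reads for the sum. The summed counts were 292, 179 and 109 in the 3 pools, against 271, 173 and 87.2 for Hoxa7 alone. The low untreated value of Hoxa7 thus may leave out reads given to Hoxaas3, which was not tested.

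**Figure D4:**
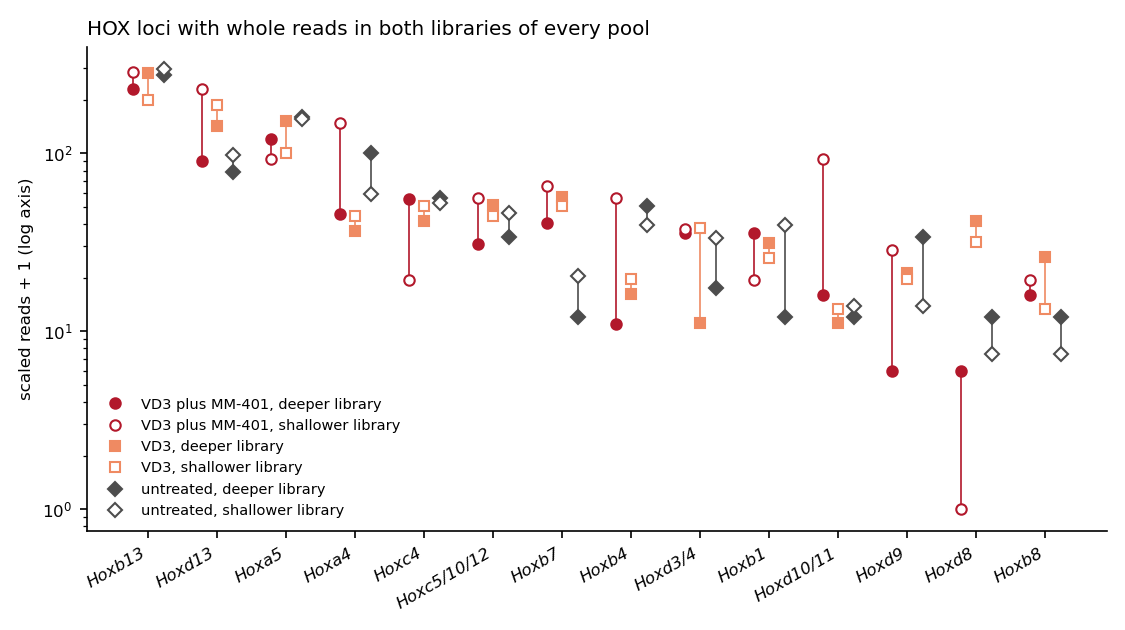
Reads of each library, brought to the scale of its pool's count, + 1 on a log axis, for the 14 HOX loci with whole reads in every pool and at least 15 reads in all; filled symbols are the deeper and open symbols the shallower library. With VD3 plus MM-401, the shallower library lies far above the deeper one for Hoxd13, Hoxa4, Hoxb4, Hoxd9 and the entry of Hoxd10 and Hoxd11. The shallower library lies far below the deeper one for Hoxc4. It is also lower for Hoxd8, which there has only 1 read in the deeper library and 0 in the shallower. Some loci are as far apart in other pools (Hoxb1 in untreated cells, the entry of Hoxd3 and Hoxd4 with VD3). For Hoxb7 both treated pools lie above both untreated libraries.

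Hoxb7 had 8 and 7 reads with VD3 plus MM-401, 11 and 8 with VD3 and 2 and 3 in untreated cells, so both libraries of each treated pool were above both untreated libraries. Other loci differed widely between the libraries of 1 pool. Hoxa4 had 9 and 16 reads with VD3 plus MM-401, which is 44.7 and 147 on the common scale. The entry of Hoxd10 and Hoxd11 had 3 and 10 reads with VD3 plus MM-401, or 14.9 and 91.9, against 2 and 2 reads with VD3 and 2 and 2 in untreated cells. Its higher pooled value with VD3 plus MM-401 thus came mostly from 1 library. Hoxd8 had 1 and 0 reads with VD3 plus MM-401, 8 and 5 with VD3 and 2 and 1 in untreated cells.

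These reads allowed a test across libraries that the pooled columns do not. It was restricted to the 3498 loci below 150 counts in every pool with at least 15 reads, since larger counts have several solutions, and it held 11 HOX loci. edgeR's quasi-likelihood test with Benjamini-Hochberg adjustment over the 3498 loci called 0 HOX loci in any comparison. At an unadjusted p below 0.05 it found 0, 0 and 1 of them for VD3 plus MM-401 against untreated, VD3 against untreated and VD3 plus MM-401 against VD3. It called 0.0286%, 0.0572% and 0% of all 3498 loci, and 10.6%, 8.43% and 6.12% had an unadjusted p below 0.05. The single HOX locus was Hoxd8, lower with VD3 plus MM-401 than with VD3, with a log2 difference of -3.24 and an adjusted p of 0.718 by edgeR. Hoxb7 had log2 differences of 1.71 for VD3 plus MM-401 and 1.76 for VD3 against untreated, with edgeR adjusted p of 0.527 and 0.627. The entry of Hoxd10 and Hoxd11 had 1.98 for VD3 plus MM-401 against untreated and 2.07 against VD3, with edgeR adjusted p of 0.548 and 0.805. At such depths a p that misses the threshold does not show that the genes were equal.

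Counted without a model, both libraries of VD3 plus MM-401 were above both untreated libraries for 4 of the 11 HOX loci (Hoxb7, Hoxb8 and the entries of Hoxd3 with Hoxd4 and of Hoxd10 with Hoxd11) and below for 1 (Hoxd8), beside 18.4% and 23.1% of all 3498 loci. Between VD3 and untreated cells it was 3 above (Hoxb7, Hoxb8 and Hoxd8) and 3 below (Hoxa4, Hoxb4 and Hoxc4), beside 25.2% and 23.2%. Between VD3 plus MM-401 and VD3 it was 2 above (Hoxa4 and the entry of Hoxd10 and Hoxd11) and 1 below (Hoxd8), beside 13% and 19.9%. With 11 loci these counts lie near the background. In a wider set of 4256 loci, which adds loci above 150 counts that had 1 solution in every pool, edgeR called 0 of 14 HOX loci in any comparison, beside 0.188%, 0.352% and 0% of all. There Hoxd13 had log2 differences of 0.80 for VD3 plus MM-401 and 0.91 for VD3 against untreated, with edgeR adjusted p of 0.555 and 0.524. Hoxa5 had -0.55 and -0.32, with edgeR adjusted p of 0.665 and 0.861.

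A few other RNAs of the clusters were listed far above most HOX entries. Hotairm1 (chromosome 6, 52156902 to 52162119, plus strand), a long noncoding RNA of the A cluster, shares its entry with 4 small annotated RNAs. That entry was at 163 FPKM with VD3 plus MM-401 (bounds 0 to 548), 55.6 with VD3 (0 to 154) and 32.1 in untreated cells (0 to 97.9). Its counts were 773, 564 and 372, so the difference for VD3 plus MM-401 against untreated was 2.34 by FPKM and 1.03 by count (+ 10) on the log2 scale, with overlapping bounds. Whether the counting used strand is not given in the sources used here. Halr1, a noncoding RNA beyond the low-numbered end of the A cluster, was at 208 FPKM with VD3 plus MM-401, 107 with VD3 and 132 in untreated cells. Of the 11 listed long noncoding RNAs of the clusters, 2 had a mean of at least 1 FPKM, and 0 were counted as different in any comparison. Hotair, the RNA of the C cluster, was listed at 0 in all pools.

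Inside the B cluster, between Hoxb13 and Hoxb9, lies Gm11539 (chromosome 11, 96248633 to 96249189), annotated as a processed pseudogene of 557 bases. It was at 112 FPKM with VD3 plus MM-401 (69.1 to 155), 69.6 with VD3 (45.5 to 93.7) and 36.8 in untreated cells (23.1 to 50.5), with counts of 2807, 1744 and 922. The bounds of VD3 plus MM-401 and of untreated cells did not overlap, and the log2 difference of 1.60 by FPKM and by count was counted as higher. Reads of a processed pseudogene can come from its parent gene, so this value is uncertain. Gm27605, an annotated small RNA of the same cluster, was at 4.82, 3.46 and 1.01 FPKM, with 40, 17 and 11 reads. It too had bounds apart between VD3 plus MM-401 and untreated cells, but its 40 reads were 12 and 28 in the deeper and the shallower library, or 59.6 and 257 on the common scale, against 27.6 and 38.7 in untreated cells, so its pooled value came mostly from 1 library. Neither is a HOX gene, and both were chosen for mention after their values were seen.

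**Figure D5:**
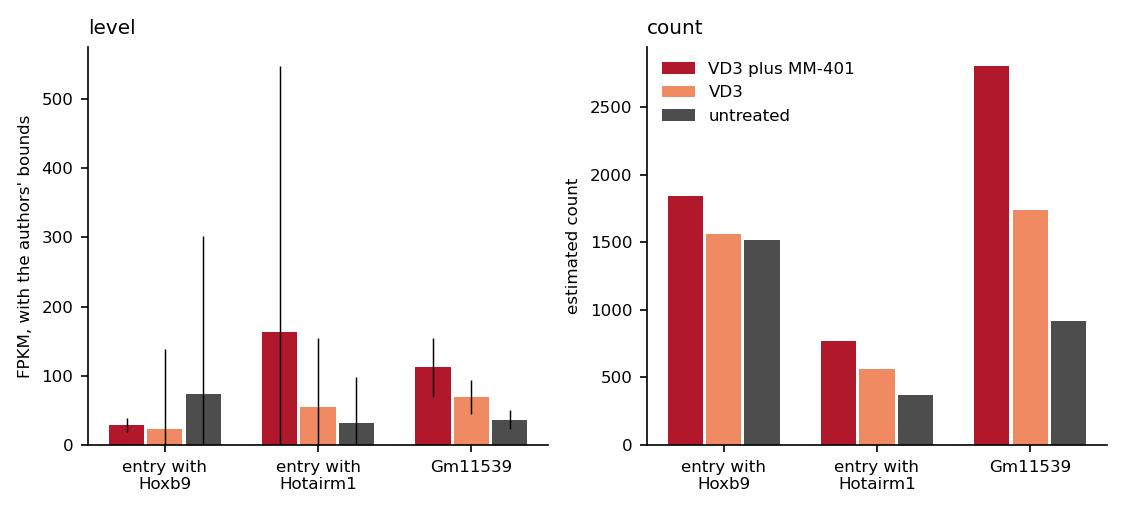
FPKM with the authors' bounds (left) and estimated count (right) of the entry of Hoxb9, the entry of Hotairm1 and Gm11539, with VD3 plus MM-401 left of VD3 and untreated cells. For the Hoxb9 entry the order of the pools differs between FPKM (28.6, 23.2 and 73.3) and count (1842, 1559.8 and 1518), while for Gm11539 both fall in the same order.

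Promoter sequence gives a feature that the choice by name did not use. MLL1 binds DNA with unmethylated CpG dinucleotides through its CXXC domain, so CpG content is shown for 3 members that were described above: Hoxa5, Hoxa7 and Hoxd13. The sequences are the 250 bases before the RefSeq start (GRCm38.p6), 5′ to 3′ on the strand of the gene, with each CpG in capitals.
Hoxa5, chr6:52204588-52204837, minus strand: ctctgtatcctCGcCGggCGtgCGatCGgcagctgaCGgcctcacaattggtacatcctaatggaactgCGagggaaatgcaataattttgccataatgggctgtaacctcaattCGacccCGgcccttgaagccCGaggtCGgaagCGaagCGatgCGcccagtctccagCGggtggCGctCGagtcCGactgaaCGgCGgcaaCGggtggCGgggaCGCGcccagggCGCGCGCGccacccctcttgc
Hoxa7, chr6:52218574-52218823, minus strand: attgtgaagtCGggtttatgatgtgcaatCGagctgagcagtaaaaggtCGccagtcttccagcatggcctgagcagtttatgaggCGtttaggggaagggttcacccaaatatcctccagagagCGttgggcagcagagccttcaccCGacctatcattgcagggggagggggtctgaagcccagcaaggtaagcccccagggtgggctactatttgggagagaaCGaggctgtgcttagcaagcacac
Hoxd13, chr2:74667975-74668224, plus strand: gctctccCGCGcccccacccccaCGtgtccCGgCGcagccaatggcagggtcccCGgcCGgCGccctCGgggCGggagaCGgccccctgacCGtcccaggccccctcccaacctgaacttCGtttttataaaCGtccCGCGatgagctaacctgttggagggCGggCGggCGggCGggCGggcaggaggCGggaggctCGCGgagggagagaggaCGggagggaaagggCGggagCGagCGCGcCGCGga
They hold 28, 7 and 31 CpG dinucleotides, at a GC content of 63.6%, 54.8% and 74.4%. Hoxa5 and Hoxd13 are thus CpG-rich up to their start, and the Hoxa7 stretch has fewer than these. Over 300 bases the Hoxa7 promoter holds 9 CpG, against a median of 7 over all promoters of that length. The RefSeq start used for Hoxa7 lies inside the longer GENCODE span given above. RefSeq promoters of 300 bases were given for 22 HOX genes (24 promoters), with a median of 14.5 CpG and 57.7% GC, against 7 CpG and 52.7% GC over 32851 promoters of all genes. They ranged from 4 CpG (Hoxa9, Hoxd4 and 1 of the 2 Hoxd11 promoters) to 45 (Hoxa13). A repeat of the letters GGTCA with 4 or with 6 bases between its copies, searched on both strands, was in 0 of the 24, and in 0.0457% and 0.10% of all promoters. No match says only that these letters are not in this window.

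The genes that work with HOX proteins were expressed more than the HOX genes themselves. All 9 listed cofactors (PBX, MEIS and PREP genes, whose proteins bind DNA together with HOX proteins) passed the filter and 0 were counted as different in any comparison. Their median difference was 0.08, 0.45 and -0.37 for VD3 plus MM-401 against untreated, VD3 against untreated and VD3 plus MM-401 against VD3. The highest were Pbx2, in an entry shared with Gpsm3, at 67.5 FPKM with VD3 plus MM-401, 58.2 with VD3 and 42.6 in untreated cells, and Pbx4 at 21, 15.8 and 11.7. Of the ParaHox and EVX genes, relatives of the HOX clusters, Cdx1, a regulator of HOX genes in the embryo, was counted as higher in both treated pools than in untreated cells. It stood at 17.9 FPKM with VD3 plus MM-401, 13.1 with VD3 and 5.43 in untreated cells. This is 1 of the 4 genes of that list that passed the filter, beside 3.64% and 0.949% of all entries higher in those comparisons. The other highest gene of that list, Gsx1, was at 2.66, 6.23 and 4.13 FPKM and was not counted as different.

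Retinoic acid is the classical inducer of HOX genes in embryonic stem cells. Of 14 listed genes of its pathway, 8 passed the filter, and 0 of these were counted as different in any comparison, with the receptor Rarg highest at 125 FPKM with VD3 plus MM-401, 177 with VD3 and 106 in untreated cells, followed by Stra8 at 42.4, 52.0 and 70.1. Of 16 measured genes of the MLL1 complex and its partners, 0 were counted as different in any comparison, beside 6.26%, 4.99% and 1.33% of all entries, and with so few genes a count of 0 for these lists lies near the background. The highest of them, Dpy30, a shared subunit of MLL complexes, was at 569.9 FPKM with VD3 plus MM-401, 418 with VD3 and 282 in untreated cells, and Psip1, which encodes the chromatin tether LEDGF, at 285, 123 and 256. The Polycomb list held 24 genes that passed the filter, among them the demethylase genes Kdm6a and Kdm6b, which do not encode Polycomb subunits. Of these 24, Suz12, a core subunit of Polycomb repressive complex 2, was counted as lower in both treated pools. It was at 29.6 FPKM with VD3 plus MM-401, 25.7 with VD3 and 132 in untreated cells. Mtf2, another member of that complex, was at 54.4, 42.1 and 181 FPKM and was counted as lower with VD3, as were Bmi1, at 3.16, 1.41 and 4.43 FPKM, and the demethylase gene Kdm6a, at 7.72, 5.64 and 14.0 FPKM. These are 1 of 24 genes lower with VD3 plus MM-401 and 4 of 24 lower with VD3, against untreated, beside 2.62% and 4.04% of all entries. The highest Polycomb genes were Rbbp4 at 467, 440.2 and 284 FPKM and Eed at 311, 307 and 355. No set of these genes was tested as a set.

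Neighbours of the clusters were also measured. Among 13 flanking genes that passed the filter, Atp5g3, on the chromosome of the D cluster, was counted as higher with VD3 plus MM-401 than untreated, and Lnpk as lower with VD3 than in untreated cells. These are 1 of 13 higher and 1 of 13 lower, beside 3.64% and 4.04% of all entries in those comparisons. With so few genes, both lie near the background. Atp5g3 was at 1054.5 FPKM with VD3 plus MM-401, 881 with VD3 and 483 in untreated cells, and Lnpk, which lies near the high-numbered end of the D cluster, at 4.06, 3.16 and 11.4. Of 10 posterior mesoderm and primitive streak genes, 2 passed the filter and 0 were counted as different. The highest, Eomes, was at 3.57 FPKM with VD3 plus MM-401, 2.82 with VD3 and 2.13 in untreated cells, and T (Brachyury) at 1.68, 1.13 and 1.18. The estimated counts of T were 216, 150 and 63.5, so VD3 was above untreated cells by count but not by FPKM.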

How the data were processed

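RNA was sequenced from 6 libraries in 3 groups of mouse embryonic stem cells. Per the submitters' processing notes, TopHat2 2.1.1, SAMtools 1.5 and Cufflinks 2.2.1 were used with mm10; their roles and settings are not stated there. The authors deposited FPKM with lower and upper bounds per assembled locus, per the file headers, and an estimated count with its variance, each as 1 pooled column per group. The level of the bounds is not given.

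Loci with the same name string were summed into entries; 11771 loci without a name, with at most 0.408% of a pool's counts, and 14 without a valid status, with at most 0.344%, were left out. Differences are log2 ratios of FPKM + 0.1 over entries with a mean of at least 1 FPKM, which understates low genes. Pooled columns allow no test; design and filter were applied to the whole table, and members and lists were chosen with earlier results of these data known. HOX entries are named in full from a mean of 1 FPKM, the 5 highest below that by name, the rest by range; listed genes are the 2 highest by mean, any called gene and Kmt2a. An overlapping or antisense gene shares reads with its partner where counting ignores strand. The edgeR 4.0.16 test (R 4.3.3) used whole reads solved per library from the deposited counts, with library sizes from the steps, a minimum of 15 reads and checks on simulated data; it was chosen after seeing the data. The series' design text calls the replicates biological duplicates. Alternatives were other pseudocounts, filters, scalings and bounds. Python 3.11.15 and GENCODE vM21 (GRCm38, the sequence of mm10) were used; protein sequences were not used here. The values of 1 HOX entry are not reported here.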

Additional observations from a re-analysis of the deposited data

How the results depend on the processing

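No HOX entry was counted as different under any alternative that was run (60 counts, all 0). The alternatives with another pseudocount, another filter or centring kept the authors' bounds, which overlapped for every HOX entry. Their counts of 0 were therefore fixed beforehand and add no support. For the 7 HOX entries with a mean of at least 1 FPKM, all 114 alternative values stayed within the range of the authors' bounds. Those ranges were wide, reaching from -11.6 to 10.4 for the Hoxb9 entry with VD3 against untreated. Staying within them therefore does not show that a value was stable. The sign differed for the Hoxb9 entry by count as deposited (0.28 for VD3 plus MM-401 and 0.04 for VD3, against untreated). With counts scaled to the pool total, it differed for VD3 plus MM-401 (0.04), while the value for VD3 was -0.20, against -1.66 as reported. The sign also differed for the entry of Hoxa2 and Hoxa3, VD3 plus MM-401 against untreated. It did so when centred (-0.20) and with counts scaled to the pool total (-0.02), against 0.03 as reported. The number of HOX entries detected was 11 with VD3 plus MM-401, 9 with VD3 and 9 in untreated cells at 0.5 FPKM, and 8, 8 and 6 at 100 estimated counts.

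Counts over all entries moved more. With a mean of at least 5 FPKM, 196 entries were lower with VD3 plus MM-401 than untreated, 86 were higher and 343 lower with VD3, and 40 were lower with VD3 plus MM-401 than with VD3; fewer entries are tested there. With counts scaled to the pool total, 222 were higher and 767 lower with VD3 plus MM-401 than untreated, 26 higher and 1215 lower with VD3, and 17 lower with VD3 plus MM-401 than with VD3. Between these last pools 119 were lower with no filter, 69 were higher and 17 lower with bounds of 2 SD of the count, and 17 lower by count as deposited, by which 909 were lower with VD3 than untreated; apart from the changed filters the cause was not tested. edgeR on whole reads below 150 counts called 1 higher and 0 lower, 0 higher and 2 lower, and 0 and 0 loci in the 3 comparisons; over every solved locus it called 1 and 7, 0 and 15, and 0 and 0.

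No paired analysis was possible because the tables hold 1 pooled column per group and the recovered libraries carry no replicate number; leaving out each replicate was not run for the same reason. Of the 34 HOX entries, 26 had fewer than 100 estimated counts with VD3 plus MM-401, 26 with VD3 and 28 in untreated cells, which limits what differences could be detected. The count as deposited and both edgeR settings were chosen after seeing the data.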

Other observations

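Of 13 named noncoding entries within the HOX clusters, 9 had their highest FPKM with VD3 plus MM-401, 3 with VD3 and 1 in untreated cells; of the 10 with a mean below 1 FPKM these counts were 6, 3 and 1. The 7 unnamed loci there went otherwise, with 1, 2 and 4. Over all 25192 named entries above 0 the shares were 33%, 36.1% and 30.9%, and over those with a mean below 1 FPKM 26.5%, 32.2% and 41.3%. Hoxaas2, a transcript whose end overlaps the annotated span of Hoxa3 on the other strand, was at 0.483 FPKM with VD3 plus MM-401, 0.123 with VD3 and 0.0717 in untreated cells. Hoxb3os, antisense to Hoxb3, was at 0.238, 0.0679 and 0.0175 FPKM, while Hoxb3 itself was at 0, 0.0780 and 0.206 FPKM. The entry of Hoxa11os was at 0.312, 0.0642 and 0.0623 FPKM, while Hoxa11 was at 0.0507, 0.0189 and 0.0483. The estimated counts of the Hoxa11os entry were 13.8, 6.19 and 2.76, so its values rest on very few reads. Haglr, beside Hoxd1, went the other way, with 0.0590 FPKM with VD3 plus MM-401, 0.502 with VD3 and 0.227 in untreated cells. The authors' bounds overlapped between all pools for each of these RNAs, and the counts of Hoxaas2, Hoxb3os and Haglr had no solution in whole reads in at least 1 pool. Whether strand was used in counting is not given in the sources used here, so sense and antisense values cannot be told apart. The 4 RNAs named here were picked after their values were seen.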
